A study of Mus musculus with 12 samples.

Results

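The cells described here were Pdgfra-positive stromal cells of mouse white fat that carried RNA of the collagen chains Col4a1 and Col15a1, here called Col4a1/Col15a1 cells. They were selected on raw UMI counts per cell, a UMI being an RNA molecule counted once. A cell needed at least 1 Pdgfra UMI, at least 2 UMIs of Col4a1 and Col15a1 together, no UMI of Pi16 or Dpp4, at most 1 UMI of Fmo2 and Myoc together, and none of Ptprc or Pecam1, the pan-leukocyte and endothelial genes. Of 126095 cells that passed the filters on UMIs, genes and mitochondrial RNA, 7409 met this rule, 5204 in eWAT and 2205 in iWAT. They were drawn from 27113 Pdgfra cells without Ptprc and Pecam1. Among these, 9576 carried at least 2 UMIs of Pi16 and Dpp4 and at most 1 of Fmo2 and Myoc (Pi16/Dpp4 cells). A further 2733 carried at least 2 of Fmo2 and Myoc and none of Pi16 and Dpp4 (Fmo2/Myoc cells).

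The SVF, the cells left after collagenase digestion of pieces from several places of a depot and removal of floating adipocytes, was profiled by droplet sequencing in 12 libraries. All mice were 12-week-old males, either C57BL/6J (WT) or Lepob/Lepob on that background (ob/ob), whose leptin gene carries a nonsense mutation. Lean mice were given vehicle (WT-Veh) and obese mice either vehicle (ob/ob-Veh) or drug (ob/ob-Rosi), with 2 libraries, labelled as biological replicates, in each group and depot. The sources used here do not state whether the eWAT and iWAT libraries of a group and number came from the same mouse. Vehicle mice received the methylcellulose suspension by gavage in the morning and evening of 3 consecutive days, and ob/ob-Rosi mice received rosiglitazone, a PPARgamma agonist, in it at 30 mg/kg. No WT library analysed here came from mice given rosiglitazone, so every drug effect described here was measured in ob/ob mice, and all p-values rest on 2 libraries per group and depot.

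Adipocyte progenitors lie along a path from multipotent Pi16- and Dpp4-expressing cells in the fibrous sheets between fat lobules to committed preadipocytes beside the capillaries, which start to express genes of lipid uptake. Committed cells lay down the basement membrane, a thin sheet of collagen IV, laminins, nidogen and perlecan that surrounds adipocytes and vessels. Collagen IV is built from trimers of 6 related chains, made from gene pairs that sit head to head. The chain Col4a1 joins Col4a2 in most tissues, while Col4a3, Col4a4 and Col4a5 form the network of the kidney filter and Col4a5 joins Col4a6 in smooth muscle and epithelia.

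The paired layout of these genes is shown here because the Col4a1 gene chose the cells and the other chains moved between groups. In the GENCODE annotation of GRCm38, Col4a1 (chr8:11198423-11312826, minus strand) and Col4a2 (chr8:11312805-11449287, plus strand) start 21 bases apart. Col4a3 (chr1:82586921-82722059, plus) and Col4a4 (chr1:82448423-82586849, minus) start 72 bases apart. Col4a5 (chrX:141475385-141689234, plus) and Col4a6 (chrX:141165403-141474076, minus) point away from each other too. The lines below give the stretch shared by the starts, or the bases before them, read 5′ to 3′ from the RefSeq promoter windows of GRCm38.p6, with capitals marking the GC box GGGCGG or the CCAAT box on either strand.
Col4a1 and Col4a2, chr8:11312805-11312826, plus strand, which lies in the first exons: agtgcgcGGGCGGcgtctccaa
Col4a3 and Col4a4, chr1:82586850-82586920, minus strand, all bases between the starts: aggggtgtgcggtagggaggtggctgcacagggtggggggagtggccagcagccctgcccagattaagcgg
Col4a5, chrX:141475169-141475384, plus strand, before the start: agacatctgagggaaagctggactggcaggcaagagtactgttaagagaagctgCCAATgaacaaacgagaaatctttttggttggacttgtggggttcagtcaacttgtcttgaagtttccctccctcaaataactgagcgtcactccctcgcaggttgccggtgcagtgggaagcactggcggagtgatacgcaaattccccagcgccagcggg
Col4a6, chrX:141474077-141474326, minus strand, before the start: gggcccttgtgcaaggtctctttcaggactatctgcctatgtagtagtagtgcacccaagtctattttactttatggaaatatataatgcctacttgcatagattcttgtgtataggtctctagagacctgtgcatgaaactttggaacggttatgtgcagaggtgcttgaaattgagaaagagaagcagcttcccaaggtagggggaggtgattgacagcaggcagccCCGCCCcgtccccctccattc
The Col4a1/Col4a2 stretch held 1 GC box, found in 7.19% of windows of its length over 32851 promoters. Those windows end just before a start, whereas this stretch lies in the first exons, so the share is no like background for it. Neither motif was in the Col4a3/Col4a4 stretch, where 20.7% of windows of that length hold a GC box and 13.3% a CCAAT box. Col4a5 had 1 CCAAT box, held by 30.8% of windows of its length, and Col4a6 had 1 GC box, held by 32.7% of windows of its length. These matches describe letters only.

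How the rule was met is a description of the choice and no finding. Of the chosen cells, 5576 (75.3%) carried both collagens, 1781 (24.0%) Col4a1 alone and 52 (0.702%) Col15a1 alone. The median was 13 UMIs of the pair, and 402 cells (5.43%) stood at the limit of 2. Cells of the same kind with 1 collagen UMI held Col4a2 at 332.8 CPM in eWAT and 301.9 in iWAT, those with exactly 2 at 575.6 and 608.7, and all chosen cells at 1683 and 2182 (CPM, UMIs in every 1e+06 UMIs of those cells). Apoe ran the other way, from 11720 and 8406 CPM with 1 collagen UMI to 5703 and 5518 with 2 and to 2766 and 2553 in all chosen cells. Cells with 1 Pi16 or Dpp4 UMI, just outside, held Col4a2 at 1483 and 2022 CPM, and those with 2 Fmo2 or Myoc UMIs at 1612 and 2268. Pi16/Dpp4 cells held it at 516 and 202.9 CPM.

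Of the marker genes of committed preadipocytes, Lpl and Icam1 were both checked. After every cell was thinned to 700 UMIs, Lpl, the lipoprotein lipase, had a UMI in 64.5% of the chosen cells in eWAT and 72.7% in iWAT, against 32.4% and 20.9% of Pi16/Dpp4 cells and 15.9% and 18.5% of T cells. Macrophages had it in 48.0% and 30.9% and endothelial cells in 62.5% and 54.3%. Before thinning the shares in the chosen cells were 91.0% and 92.7%. The collagen chain Col4a2 was found in 63.6% and 71.4% of thinned cells, against 2.12% and 3.21% of T cells. Icam1, an adhesion molecule used as a marker of committed preadipocytes, was found in 4.82% and 6.3% of thinned cells, against 3.42% and 1.66% of Pi16/Dpp4 cells, 7.14% and 6.05% of T cells and 11.2% and 11% of macrophages, and in 18.6% and 22.9% before thinning, against 19.7% and 7.59% of Pi16/Dpp4 cells and 20.1% and 15.2% of T cells. Its level was 71.2 and 127.6 CPM, against 53.7 and 28.5 in Pi16/Dpp4 cells and 75.2 and 105.6 in Fmo2/Myoc cells. Icam1 thus stood above Pi16/Dpp4 cells in iWAT. In eWAT its pooled level and thinned share were higher than theirs, but its unthinned share was lower. Its eWAT level was also below theirs in ob/ob-Veh 2 (63.8 against 75.3 CPM) and ob/ob-Rosi 2 (73.6 against 77.6 CPM). The thinned share of Icam1 was below that of T cells in eWAT and near it in iWAT. The cells are called here by their genes. Pparg, the master regulator of adipocytes, had a UMI in 0.942% and 1.63% of thinned cells, against 0.121% and 0.324% of Pi16/Dpp4 cells and 13.1% and 16.2% of endothelial cells. In T cells Pparg stood at 0.265% and 0.897%. Fmo2/Myoc cells carried these genes too. They held Lpl at 1493 and 2086 CPM, Col4a2 at 1496 and 2226 and Pparg at 13.6 and 30.8. The chosen cells held Lpl at 2022 and 3087 CPM, Col4a2 at 1683 and 2182 and Pparg at 17.4 and 34.9.

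Library facts bear on all results. The chosen cells numbered 399 to 1325 per eWAT library and 90 to 760 per iWAT library, and held 362207 to 5446886 UMIs per library, with medians of 1502 to 5463.5 UMIs per cell. Any pair of libraries shared at most 99 barcodes of kept cells and 6 of chosen cells. The 6 were shared by iWAT ob/ob-Rosi 1 and eWAT ob/ob-Veh 1, with 94 of kept cells beside a median of 28 over all pairs. That iWAT library held 8 Wt1, 15 Tcf21 and 258 Sult1e1 UMIs, where iWAT ob/ob-Rosi 2 held 0 of each. A link of these to the shared barcodes was not tested. The iWAT WT-Veh 1 library held 541 Pdgfra cells among 17063 kept cells, at a median of 1132 UMIs per kept cell. Lymphocyte markers summed to 246.9 CPM in its chosen cells, beside 13.3 in iWAT WT-Veh 2 and less in the iWAT ob/ob libraries. The Lepob allele is a nonsense mutation that leaves a transcript, so Lep reads cannot check the genotype, and Lep UMIs per 100 Adipoq UMIs stood at 30.5 and 79.3 in the eWAT libraries labelled WT-Veh, 3.59 and 10.3 in ob/ob-Veh and 259 and 361 in ob/ob-Rosi, and at 20.5 and 31.4, 33.3 and 14.0, and 164 and 139 in iWAT. Where 3 pairs of values stand in a row, they are the libraries 1 and 2 of WT-Veh, then of ob/ob-Veh, then of ob/ob-Rosi. In pooled cells of a library, fewer cells of a type and less RNA per cell cannot be told apart.

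The share of Pdgfra cells that met the rule is given per library and without a test, since the rule set it. In eWAT it was 56.5% and 32.5% in WT-Veh, 27.7% and 33.9% in ob/ob-Veh and 49.4% and 47.9% in ob/ob-Rosi. The iWAT shares were 24.8% and 11.5%, 3.70% and 11.3%, and 33.9% and 18.0%. Both ob/ob-Rosi libraries stood above both ob/ob-Veh libraries in each depot. Thinned to 700 UMIs, the eWAT shares were 58.2% and 46.2%, 32.5% and 39.6%, and 52.4% and 64.3%, and the iWAT shares 21.8% and 13.3%, 4.66% and 18.8%, and 46.8% and 34.7%. This order of the ob/ob groups was the same, while the iWAT WT-Veh and ob/ob-Veh libraries overlapped after thinning.

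**Figure D1:**
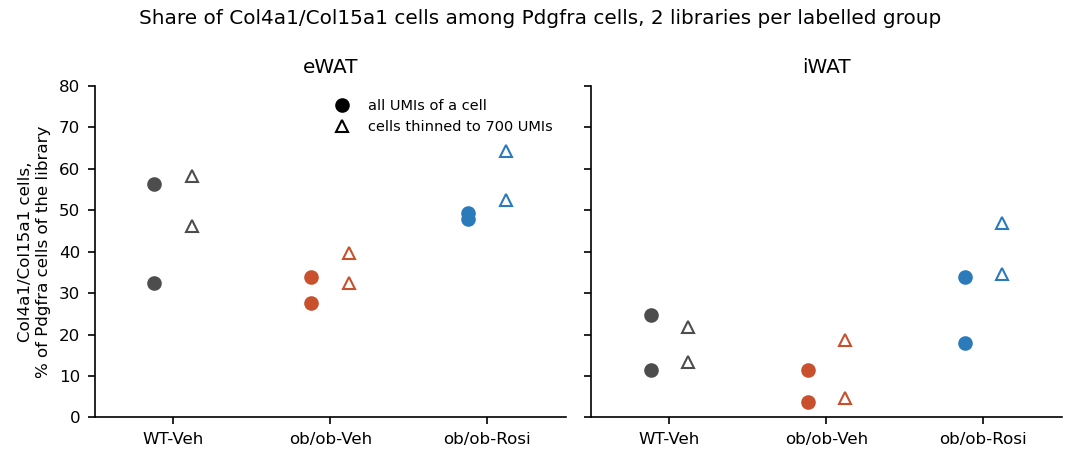
Share of Pdgfra cells (percent, vertical axis) that met the rule in each of the 12 libraries (horizontal axis), before thinning (circles) and after thinning every cell to 700 UMIs (triangles). In each depot both ob/ob-Rosi libraries lie above both ob/ob-Veh libraries in either form, and the lowest raw share is 3.70% in iWAT ob/ob-Veh 1.

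The genes of the rule are given as levels. Col4a1 stood at 4774 and 4553 CPM in eWAT WT-Veh, 2254 and 2692 in ob/ob-Veh and 4365 and 4416 in ob/ob-Rosi, and at 3446 and 2395, 2860 and 5518, and 4392 and 4985 in iWAT. Thus the ob/ob-Veh libraries were lowest in eWAT, and in iWAT they overlapped both other groups. Col15a1, a collagen that links basement membrane to the fibres beneath it, ranged from 697.6 to 1252 CPM in eWAT and from 394.3 to 907.6 in iWAT. Pdgfra, the receptor that marks fat progenitors, ranged from 353 to 903 CPM and from 415 to 1227.

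Calls over all genes were more numerous in eWAT than in iWAT for ob/ob-Veh against WT-Veh and for the drug within ob/ob, and fewer for ob/ob-Rosi against WT-Veh. Calls were made on UMIs summed per library with edgeR's quasi-likelihood test, where the p adjusted by Benjamini-Hochberg did not exceed 0.05 and the change was at least 1.1-fold. In eWAT, 396 of 11632 genes (3.4%) were higher and 554 (4.76%) lower in ob/ob-Veh than in WT-Veh, and 452 (3.89%) were higher and 345 (2.97%) lower in ob/ob-Rosi than in ob/ob-Veh. Both comparisons share the ob/ob-Veh libraries. The shares over all genes are the reference for the eWAT list counts of these comparisons below. With the replicate number as a block, whose libraries deviated together in eWAT, 1501 and 1374 genes were called, with all 950 and 797 among them. Few calls between groups of 2 libraries do not show that the groups were alike. For ob/ob-Rosi against WT-Veh, 0 genes (0.0%) were higher and 1 (0.0086%) was lower, with 101 and 166 genes at a raw p below 0.05 and 0 and 1 called by DESeq2. That gene, Car3, a carbonic anhydrase abundant in adipocytes, stood at 24.9 and 14.6 CPM in WT-Veh, 68.1 and 66.1 in ob/ob-Veh and 0.73 and 1.14 in ob/ob-Rosi, a change of -4.33 on the log2 scale (adjusted p = 0.0246 in edgeR), but it was no higher in these cells than in macrophages or endothelial cells of the depot and its call was lost without WT-Veh 1, ob/ob-Rosi 1 or ob/ob-Rosi 2. The count for ob/ob-Veh against WT-Veh was 290 without WT-Veh 1, 609 without WT-Veh 2, 336 and 429 without ob/ob-Veh 1 and 2, and 1489 and 1432 without ob/ob-Rosi 1 and 2. The count for ob/ob-Rosi against ob/ob-Veh was 1848 without ob/ob-Rosi 1, 274 without ob/ob-Rosi 2, and 268 and 312 without ob/ob-Veh 1 and 2.

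In iWAT, 65 of 9385 genes (0.693%) were higher and 42 (0.448%) lower in ob/ob-Veh than in WT-Veh, and 31 (0.33%) were higher and 44 (0.469%) lower in ob/ob-Rosi than in ob/ob-Veh. When set against WT-Veh, ob/ob-Rosi had 2 genes higher (0.0213%) and 17 lower (0.181%). DESeq2 called 133 and 132, 125 and 96, and 18 and 22 genes in the same order. These iWAT counts rested on ob/ob-Veh 1, with 90 cells, and ob/ob-Veh 2. Each list count given below for the first 2 iWAT comparisons reached 0 with some library left out. The iWAT shares over all genes are the reference for those counts. Without the one or the other, 0 and 2 genes were called for ob/ob-Veh against WT-Veh, 0 and 0 for the drug within ob/ob, and 4 and 4 for ob/ob-Rosi against WT-Veh. Leaving out WT-Veh 1 gave 883, 697 and 67 genes, WT-Veh 2 gave 592 and 97 for the last 2 comparisons, and ob/ob-Rosi 1 and 2 gave 302 and 239 for the first and 178 and 29 for the second.

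The collagen IV chains did not move together in eWAT. The common chain Col4a2 fell in ob/ob-Veh and rose with rosiglitazone, while Col4a3, Col4a4 and Col4a6 did the reverse. Col4a2 stood at 2382 and 2470 CPM in WT-Veh, 782.8 and 1008 in ob/ob-Veh and 2090 and 2423 in ob/ob-Rosi. It changed by -1.52 ± 0.26 (log2 fold change ± SE, n = 2 libraries per group, edgeR adjusted p = 0.0047) in ob/ob-Veh against WT-Veh and by 1.41 ± 0.26 (adjusted p = 0.0077) in ob/ob-Rosi against ob/ob-Veh. No ob/ob-Veh library overlapped the others, and the first call was lost without WT-Veh 1 or ob/ob-Veh 1 and the second without ob/ob-Veh 1 or 2, at changes of -1.64 to -1.43 and of 1.31 to 1.53 over all libraries left out. Col4a2 was not used in the choice, but it shares its start region with Col4a1, which was.

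Col4a4, a chain of the kidney-filter network, stood at 3.84 and 3.29 CPM in eWAT WT-Veh, 63.7 and 76.9 in ob/ob-Veh and 8.40 and 1.82 in ob/ob-Rosi. The ob/ob-Veh libraries were far above the rest. It rose by 4.19 ± 0.53 (adjusted p = 0.0011) in ob/ob-Veh and fell by 3.82 ± 0.49 (adjusted p = 0.0012) with rosiglitazone, in edgeR, and kept both calls whichever eWAT library was left out. Before thinning a Col4a4 UMI was found in 0.604% and 1.75% of the WT-Veh cells, 24.1% and 27.3% of the ob/ob-Veh cells and 2.37% and 1.06% of the ob/ob-Rosi cells. Over all eWAT libraries its share was 9.86% in these cells, 0.434% in macrophages and 0.265% in T cells. In iWAT it stood at 14.6 and 15.5 CPM in WT-Veh, 140.8 and 152 in ob/ob-Veh and 41.6 and 40.6 in ob/ob-Rosi, with changes of 3.30 ± 0.34 (adjusted p = 0.0022) and -1.86 ± 0.28 (adjusted p = 0.027). In both depots, then, Col4a4 was highest in both ob/ob-Veh libraries, and in iWAT the ob/ob-Rosi libraries lay between the other groups. Pi16/Dpp4 cells held Col4a4 at 0 and 1.41, 18.4 and 19.3, and 4.38 and 0.852 CPM in eWAT and at 14.8 and 8.26, 51.2 and 76.1, and 13.4 and 12.7 in iWAT, so ob/ob-Veh was highest there too, while WT-Veh and ob/ob-Rosi overlapped.

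Col4a3 and Col4a6 followed the same order in eWAT at lower levels. Col4a3 stood at 0.767 and 2.35 CPM in WT-Veh, 16 and 23.6 in ob/ob-Veh and 3.65 and 1.14 in ob/ob-Rosi, changing by 3.6 ± 0.60 (adjusted p = 0.0045) and -3.06 ± 0.54 (adjusted p = 0.0061). Its first call was lost without WT-Veh 1 and its second without ob/ob-Rosi 2 or ob/ob-Veh 2, with changes of 3.03 to 4.48 and of -4.00 to -2.33 over the libraries left out. Col4a6 stood at 2.30 and 3.29, 31.6 and 55.6, and 4.38 and 0.456 CPM, changing by 3.86 ± 0.62 (adjusted p = 0.0035) and -4.26 ± 0.62 (adjusted p = 0.0023). Its first call was lost without WT-Veh 1, at changes of 3.49 to 4.15 over the libraries left out. Neither pair of groups overlapped. In iWAT, Col4a3 stood at 6.28 and 5.92, 35.9 and 51.4, and 23.6 and 17.8 CPM and rose by 2.92 ± 0.48 (adjusted p = 0.022) in ob/ob-Veh, whereas Col4a6 reached at most 2.76 CPM in any library.

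Col4a5, the chain shared by both rarer networks, was the weakest of these calls. It stood at 51.8 and 24.0 CPM in eWAT WT-Veh, 245.1 and 293.6 in ob/ob-Veh and 77.0 and 8.88 in ob/ob-Rosi. Its rise of 2.71 ± 0.73 (adjusted p = 0.042 in edgeR) in ob/ob-Veh was lost without either WT-Veh or either ob/ob-Veh library, at changes of 2.23 to 3.47, and in DESeq2. The iWAT libraries held 48.1 and 22.2, 104.9 and 87.8, and 34.4 and 29.6 CPM. A UMI of any of the 4 chains Col4a3 to Col4a6 was found in 9.96% and 14.3% of eWAT WT-Veh cells, 68.1% and 67.3% of ob/ob-Veh cells and 21.4% and 6.33% of ob/ob-Rosi cells. In iWAT these shares were 17.9% and 15.8%, 45.6% and 47.0%, and 31.6% and 21.7%. The ob/ob-Veh libraries were highest in either depot, with depth as given above not equalised for these shares.

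**Figure D2:**
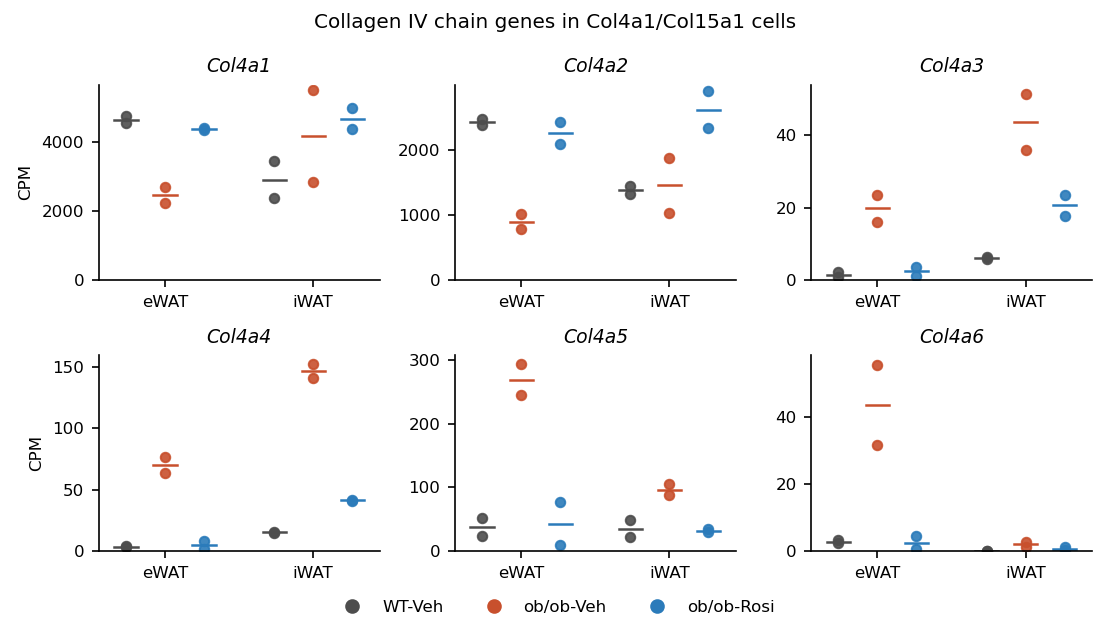
Level of the collagen IV chains Col4a1 to Col4a6 in the Col4a1/Col15a1 cells (CPM, linear vertical axis from 0, own scale for each gene), with 1 point per library, 2 per group and depot, and a bar at their mean. Col4a1 took part in the choice of cells. Col4a2 is lowest in the eWAT ob/ob-Veh libraries at 782.8 and 1008 CPM, where Col4a4 is highest of that depot at 63.7 and 76.9 CPM.

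Besides the collagen IV chains, Col18a1 was the basement membrane gene called in eWAT of ob/ob-Veh mice. Of the 21 genes of the list tested in eWAT, 4 were higher and 2 lower in ob/ob-Veh than in WT-Veh, with a median change of -0.01 beside 0.01 over all genes tested, and 3 were higher and 4 lower in ob/ob-Rosi than in ob/ob-Veh (median 0.10 beside -0.01). With a library left out these were 1 to 6 and 0 to 3, then 0 to 4 and 2 to 5. Col18a1, whose cleaved end is endostatin, stood at 225.5 and 423.6, 102.8 and 133.4, and 246.4 and 374.4 CPM and fell by 1.52 ± 0.34 (adjusted p = 0.017), then rose by 1.47 ± 0.34 (adjusted p = 0.024). Its first call was lost without WT-Veh 2 or either ob/ob-Veh library and its second without ob/ob-Rosi 2 or either ob/ob-Veh library, at changes of -1.86 to -1.08 and of 1.15 to 1.74, and both were lost after thinning. The linker Nid1 changed by -0.02 ± 0.29, the vascular laminin chain Lama4 by 0.57 ± 0.28 (adjusted p = 0.26) and the collagen-binding Sparc by -0.90 ± 0.31 (adjusted p = 0.10) in ob/ob-Veh, none past the test. In iWAT, 3 of 19 were higher and 0 lower in ob/ob-Veh (median 0.41 beside 0.01), namely Col4a3, Col4a4 and the laminin chain Lamb2, which stood at 94.2 and 92.5, 331.3 and 263.3, and 170 and 114 CPM. With rosiglitazone 1 of 19, Col4a4, was lower and 0 were higher there (median 0.10 beside -0.04).

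Of 26 interstitial matrix genes tested in eWAT, 2 were higher and 10 lower in ob/ob-Veh than in WT-Veh (median -0.65 beside 0.01), and 11 were higher and 0 lower in ob/ob-Rosi than in ob/ob-Veh (median 0.82 beside -0.01). Over the libraries left out in turn the lower genes numbered 4 to 11 and the higher ones 4 to 12. After thinning they were 9 and 11. The genes higher in ob/ob-Veh were Dcn, the proteoglycan decorin, at 8198 and 10680, 20810 and 23010, and 13150 and 12250 CPM, and Eln, elastin, at 168.8 and 117.7, 314.5 and 448.2, and 222.3 and 122.8 CPM. Of the matrix genes named here, Tnc, tenascin C of healing wounds, stood at 75.6 and 31.1 CPM in WT-Veh, 0.734 and 0.458 in ob/ob-Veh and 55.5 and 62.2 in ob/ob-Rosi. It fell by 6.47 ± 0.59 (adjusted p = 0.00025) and rose by 6.57 ± 0.59 (adjusted p = 0.00023).

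Other matrix genes had the same order without overlap. Mgp, the matrix Gla protein that inhibits calcification, stood at 7725 and 5267 CPM in eWAT WT-Veh, 357.3 and 259.5 in ob/ob-Veh and 8678 and 7924 in ob/ob-Rosi, changing by -4.47 ± 0.36 (adjusted p = 0.00022) and 4.80 ± 0.36 (adjusted p = 0.00015). The short-chain collagen Col8a1 stood at 124.7 and 54.6, 2.20 and 3.20, and 55.9 and 138.5 CPM. Timp1, an inhibitor of matrix-degrading enzymes, stood at 876.4 and 588.8, 45.4 and 22.0, and 504.1 and 1133 CPM. In each of these genes both ob/ob-Veh libraries were far below all 4 others. In eWAT Pi16/Dpp4 cells ob/ob-Veh was lowest too, with Mgp at 5332 and 5245, 164.7 and 338.9, and 8181 and 8420 CPM. Timp1 stood there at 1253 and 678.7, 24.3 and 23.0, and 614.9 and 883.7 CPM. The adhesion molecule Cadm4 stood at 48.3 and 46.6, 1.1 and 0, and 23.4 and 48.3 CPM. The proteinase Mmp3, known for cleaving proteoglycans, stood at 172.2 and 124.2, 12.9 and 1.83, and 187.6 and 272.4 CPM and fell by 4.34 ± 0.65 in ob/ob-Veh. All were called in edgeR in ob/ob-Veh against WT-Veh.

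Postn and Bgn moved alike in both depots. Postn, periostin, which helps cross-link collagen, stood at 1073 and 1927, 156.4 and 211.9, and 1123 and 1115 CPM in eWAT and at 2245 and 1648, 209.8 and 180.9, and 1045 and 602.6 CPM in iWAT. It changed by -3.10 ± 0.32 (adjusted p = 0.00038) and 2.68 ± 0.32 in eWAT and by -3.29 ± 0.40 (adjusted p = 0.0048) and 2.06 ± 0.38 (adjusted p = 0.039) in iWAT. In eWAT Pi16/Dpp4 cells Postn was also lowest in ob/ob-Veh, at 1359 and 1813, 242.7 and 226.8, and 1360 and 1189 CPM. Bgn, the small proteoglycan biglycan, stood at 2398 and 3318, 557.4 and 650.7, and 2293 and 4028 CPM in eWAT and at 1835 and 2241, 552.2 and 555.5, and 1751 and 1709 in iWAT. Its changes were -2.31 ± 0.32 and 2.46 in eWAT and -1.84 ± 0.29 and 1.61 ± 0.29 in iWAT. For both genes the ob/ob-Veh libraries were lowest in each depot and the ob/ob-Rosi libraries of iWAT stayed below WT-Veh. The iWAT calls were lost without ob/ob-Veh 1 or 2, where Postn changed by -3.53 to -3.09 and by 1.59 to 2.46 and Bgn by -2.03 to -1.72 and by 1.59 to 1.71 over all libraries left out.

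Of 21 TGF-beta genes tested in eWAT, 3 (Ltbp4, Tgfbr3 and Ltbp1) were higher and 8 lower in ob/ob-Veh (median -0.75 beside 0.01), and 7 were higher and 2 lower with rosiglitazone (median 0.44 beside -0.01). Over the libraries left out the lower genes numbered 4 to 9 and the higher ones with the drug 5 to 7. Tagln, the actin-binding transgelin, stood at 98.2 and 114.4, 6.06 and 5.72, and 86.2 and 181.5 CPM, changing by -4.23 ± 0.41 and 4.56 in log2. Ctgf, the connective tissue growth factor, stood at 199.4 and 67.3, 11.2 and 9.38, and 119.4 and 61.0 CPM, changing by -3.79 ± 0.55 and 3.18. Acta2, smooth muscle actin, stood at 29.2 and 29.7, 7.34 and 9.15, and 54.4 and 96.1 CPM. Ltbp2, which binds latent TGF-beta in microfibrils, stood at 47.2 and 41.0, 8.81 and 2.98, and 25.6 and 41 CPM. All 4 were lower in both ob/ob-Veh libraries than in any other library. Not every contractile gene did so, since Lmod1, an actin nucleator of smooth muscle, stood at 1.15 and 1.88, 17.1 and 29.8, and 1.1 and 0.228 CPM. Of 7 mural cell markers, a list that holds Tagln and Acta2 themselves, 3 were lower in ob/ob-Veh and 3 higher with rosiglitazone, at summed levels of 164.2 and 227.3, 43.7 and 70.2, and 215.4 and 360.3 CPM. The third was Notch3, a receptor of mural cells, at 27.2 and 55.5, 4.41 and 9.61, and 53.3 and 65.8 CPM, whereas Myh11, the smooth muscle myosin that defines the lineage, stood at 1.15 and 15.5, 20.2 and 31.6, and 4.75 and 4.78. The part of mural cell RNA in the result was not tested. In iWAT 1 of 17 TGF-beta genes was higher and 0 lower in ob/ob-Veh, and 1 was higher with the drug.

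Among called genes of at least 20 CPM whose libraries did not overlap, those with the largest rise in eWAT of ob/ob-Veh mice included Sult1e1, Clic6, Nt5e, Kcna2 and Prokr1. Sult1e1, the sulfotransferase that inactivates estrogens, stood at 29.9 and 2.35 CPM in WT-Veh, 1854 and 1355 in ob/ob-Veh and 43.8 and 10.2 in ob/ob-Rosi. It rose by 6.49 ± 0.94 (adjusted p = 0.0019) and fell by 5.87 ± 0.90 (adjusted p = 0.0031). In eWAT Pi16/Dpp4 cells Sult1e1 was also highest in ob/ob-Veh, at 27.3 and 2.81, 653.7 and 559.8, and 33.6 and 21.3 CPM. Clic6, a chloride channel protein, stood at 0 and 0, 49.4 and 64.1, and 0.73 and 0 CPM, so it was at least 88.2-fold higher in ob/ob-Veh, 549 UMIs against a floor of 3 for none found, and 199.4 times (95% counting interval 54.9 to 1650) as high as in ob/ob-Rosi. Nt5e, the CD73 enzyme that makes adenosine, stood at 0 and 0, 36.2 and 37.1, and 4.75 and 0 CPM, at least 57.7-fold higher in ob/ob-Veh, although DESeq2 did not call it. The prokineticin receptor Prokr1 rose by 4.91 ± 0.58 and the potassium channel Kcna2 by 4.98 ± 0.71. The counting intervals and floors cover counting error only. Clic6 and Nt5e thus had no UMI in WT-Veh and few in ob/ob-Rosi.

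Rspo3, Wnt5a, Igf1, Fgf10 and Angpt1, named from the lists of signalling genes, were also highest in eWAT of ob/ob-Veh mice, and Dkk3 was lowest there. Rspo3, an R-spondin that amplifies Wnt signals, stood at 1.92 and 3.29 CPM in WT-Veh, 46.1 and 60.4 in ob/ob-Veh and 1.1 and 1.37 in ob/ob-Rosi, changing by 4.28 ± 0.38 (adjusted p = 0.00025) and -5.29 ± 0.40 (adjusted p = 0.00015). The non-canonical Wnt ligand Wnt5a stood at 21.5 and 24, 136.6 and 174.1, and 19 and 9.57 CPM, changing by 2.69 ± 0.35 and -3.40. Igf1, the insulin-like growth factor, stood at 241.2 and 213.7, 1452 and 1282, and 199.3 and 149.2 CPM, changing by 2.51 ± 0.30 (adjusted p = 0.00087) and -2.91 ± 0.31 (adjusted p = 0.0004), with a mean of 292 CPM in the macrophages. In all 3 genes both ob/ob-Veh libraries exceeded every other library, and the ob/ob-Rosi libraries lay at or below WT-Veh. In eWAT Pi16/Dpp4 cells ob/ob-Veh was also highest for Rspo3 and Wnt5a. Igf1 overlapped between the groups there, at 188.3 and 154.6, 168.5 and 279.8, and 197.2 and 130.4 CPM. Fgf10, a growth factor of fat progenitors, stood at 4.99 and 14.1, 67.2 and 53.8, and 10.2 and 11.2 CPM, but its calls were lost after thinning. Angpt1, the Tie2 ligand that steadies vessels, stood at 14.6 and 16.5, 45.5 and 48.3, and 10.6 and 9.57 CPM. Dkk3, of the Dickkopf family, ran the other way, at 19.9 and 16.5, 1.84 and 1.14, and 23.4 and 24.1 CPM.

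As lists, the BMP and Wnt genes and the IGF genes had calls in both directions, and the angiogenic genes in one direction per comparison. Of 21 BMP and Wnt genes tested in eWAT, 5 were higher and 4 lower in ob/ob-Veh (median 0.83 beside 0.01), and 3 were higher and 7 lower with rosiglitazone (median -0.59 beside -0.01). Leaving out a library made these 3 to 9 and 1 to 3, then 1 to 3 and 4 to 10. Of 14 angiogenic genes, 3 were higher and 0 lower, then 0 higher and 4 lower (medians 0.50 and -0.69), or 1 to 4 and 3 to 5 with a library left out and none after thinning. Of 15 IGF genes, 3 were higher and 2 lower, then 1 higher and 4 lower (medians 0.30 and -0.29), or 2 to 3 and 0 to 3, then 0 to 2 and 2 to 6, with a library left out. In iWAT 3 of 16 BMP and Wnt genes were higher in ob/ob-Veh and 3 lower with the drug, among them Dkk2, a Wnt inhibitor, at 6.28 and 14.8, 60.7 and 123.1, and 15.3 and 11 CPM. Gdf10, a BMP-family inhibitor of fat cell formation, was higher in ob/ob-Veh in both depots, at 103.6 and 180.3, 526.7 and 797.4, and 152.2 and 130.5 CPM in eWAT and at 123.5 and 180.5, 665.4 and 603.6, and 197.4 and 295.4 in iWAT. Its changes in ob/ob-Veh were 2.15 ± 0.32 in eWAT and 2.09 ± 0.32 (adjusted p = 0.015) in iWAT, the latter lost without ob/ob-Veh 1 or 2, where it ranged from 1.80 to 2.37 over all libraries left out.

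Inflammatory and stress genes were mixed. Of 25 inflammatory stromal genes tested in eWAT, 4 were higher and 3 lower in ob/ob-Veh (median 0.44 beside 0.01), and 3 were higher and 5 lower with rosiglitazone (median -0.73 beside -0.01). Over the libraries left out in turn, 0 to 8 were higher and 1 to 4 lower in ob/ob-Veh, and 1 to 3 higher and 0 to 8 lower with the drug. With the replicate block 11 and 13 of the genes were called. The cytokine Il6 stood at 30.7 and 11.3, 302 and 119, and 28.1 and 6.15 CPM, rising by 3.24 ± 0.70 (adjusted p = 0.016) and falling by 3.64 ± 0.71. Ptgs2, the inducible cyclooxygenase, stood at 26.1 and 3.77, 244.4 and 122.2, and 24.5 and 1.82 CPM in eWAT and at 8.37 and 2.96, 113.2 and 39.6, and 5.90 and 7.10 in iWAT, rising by 3.50 ± 0.92 (adjusted p = 0.039) and 3.99 ± 0.69 (adjusted p = 0.025), while iWAT macrophages held it at 40.4 CPM. Tnfaip6, which modifies hyaluronan, stood at 105.9 and 62.6, 557.6 and 297, and 123.8 and 46.9 CPM. All 3 were highest in both ob/ob-Veh libraries. In eWAT their calls in ob/ob-Veh were lost without WT-Veh 1, WT-Veh 2 or ob/ob-Veh 1, at changes of 2.30 to 4.25 for Il6, 2.70 to 5.62 for Ptgs2 and 1.64 to 2.79 for Tnfaip6 over all libraries left out.

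Genes switched on by tissue digestion were called in the same comparisons. Of 17 dissociation genes, 5 were higher and 0 lower in eWAT of ob/ob-Veh mice and 0 higher and 5 lower with rosiglitazone (medians 0.40 and -0.98), and 3 higher and then 3 lower in iWAT (medians 0.63 and -0.57). With an eWAT library left out, 1 to 7 were higher in ob/ob-Veh and 1 to 8 lower with the drug, and 8 were called for the drug with the replicate block. Their summed level was 9372 and 12790 CPM in eWAT WT-Veh, 19200 and 16400 in ob/ob-Veh and 10210 and 7636 in ob/ob-Rosi, and 14880 and 14180, 21120 and 22080, and 17570 and 16520 in iWAT. Socs3, a feedback inhibitor of cytokine receptors, stood at 175 and 228, 904 and 632, and 169 and 139 CPM in eWAT, and the heat shock gene Hspa1b at 40.3 and 39.1, 182.9 and 174.6, and 62.8 and 51.0. The part of the digestion in the inflammatory genes was not tested.

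Of 18 transcription factors of fat cell formation tested in eWAT, 3 were higher and 0 lower in ob/ob-Veh (median 0.39 beside 0.01), and 0 higher and 2 lower with rosiglitazone (median -0.55 beside -0.01). With a library left out 0 to 6 were higher and then 0 to 4 lower, and 5 were called in ob/ob-Veh with the replicate block. None was called in iWAT between these groups. Cebpd, an early factor, stood at 503.2 and 505, 1498 and 1149, and 490.3 and 381 CPM, changing by 1.33 ± 0.29 and -1.55 ± 0.29, and Ebf2, known from beige and brown precursors, stood at 50.6 and 145.9, 298.2 and 319.2, and 97.5 and 74.5 CPM, changing by 1.61 ± 0.40 (adjusted p = 0.03) and -1.78. The third call was Klf2, no higher in these cells than in macrophages or endothelial cells. The calls of Cebpd and Ebf2 in ob/ob-Veh were each lost without 3 of the 6 libraries (WT-Veh 1, ob/ob-Veh 1 and, for Cebpd, WT-Veh 2 or, for Ebf2, ob/ob-Veh 2), at changes of 1.03 to 1.57 and of 1.07 to 2.47. Pparg stood at 19.2 and 32.9, 12.3 and 13.7, and 11 and 23.0 CPM in eWAT and at 43.9 and 59.2, 11 and 32.1, and 30.5 and 29.6 in iWAT. Its change with rosiglitazone was 0.48 ± 0.38 (adjusted p = 0.52) in eWAT and 0.29 ± 0.41 (adjusted p = 0.75) in iWAT. Cebpa, its partner, changed by 0.01 ± 0.32 (adjusted p = 0.99) in eWAT of ob/ob-Veh mice.

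Target genes of PPAR, the receptor that rosiglitazone binds, included several that were lower in ob/ob-Veh, and in iWAT in ob/ob-Rosi too, than in WT-Veh. Of 33 tested there, 0 were higher and 5 lower in ob/ob-Veh than in WT-Veh (median -1.09 beside 0.01, 31 of 33 negative), none was called between ob/ob-Rosi and ob/ob-Veh (median 0.04 beside -0.04), and 6 were lower and 0 higher in ob/ob-Rosi than in WT-Veh (median -0.99 beside -0.01, 33 of 33 negative). With a library left out the lower genes numbered 0 to 14 and 0 to 11, and after thinning 2 and 2. Between the ob/ob groups 0 to 3 were higher with a library left out and 1 after thinning. Their summed level was 27710 and 43300 CPM in WT-Veh, 5897 and 6489 in ob/ob-Veh and 7782 and 7547 in ob/ob-Rosi. In eWAT 1 of 33 was higher and 7 lower in ob/ob-Veh (median -0.49, 2 to 10 lower with a library left out and 4 after thinning), 2 were higher and 1 lower with rosiglitazone (median 0.15, 0 to 6 higher with a library left out), and none was called in ob/ob-Rosi against WT-Veh (median -0.38, 29 negative). Between ob/ob-Rosi and ob/ob-Veh, then, 2 of these genes were called higher in eWAT and 0 in iWAT.

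In WT-Veh most of this sum was Fabp4, the fatty acid carrier, at 15280 and 33530 CPM in iWAT WT-Veh, 775.8 and 1564 in ob/ob-Veh and 3098 and 3293 in ob/ob-Rosi. It changed by -4.34 ± 0.47 (adjusted p = 0.0022) in ob/ob-Veh and by -2.92 ± 0.44 (adjusted p = 0.028) in ob/ob-Rosi against WT-Veh. Endothelial cells of iWAT held it at a mean of 50900 CPM. The fatty acid transporter Cd36 stood at 2459 and 1156, 215.3 and 321.1, and 324 and 157.7 CPM, beside 8597 in endothelial cells. Plin4, a coat protein of lipid droplets, stood at 299.2 and 273, 88.4 and 117.7, and 72.9 and 66.7 CPM and was higher in these cells than in macrophages or endothelial cells. It changed by -1.42 ± 0.30 (adjusted p = 0.0497) and by -2.03 ± 0.29 (adjusted p = 0.026) against WT-Veh in vehicle-treated and drug-treated ob/ob mice. Pdk4, which holds back glucose oxidation, stood at 92.1 and 63.6, 49.7 and 19.3, and 11.5 and 13.0 CPM and was 2.64 ± 0.43 lower (adjusted p = 0.039) in ob/ob-Rosi than in WT-Veh.

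Lpl, the target gene with the label of the cells, stood at 6010 and 4129, 3294 and 2988, and 2945 and 2149 CPM in iWAT and at 2472 and 3137, 1835 and 1370, and 2673 and 1692 in eWAT. Its change of -0.66 ± 0.33 (adjusted p = 0.34) in iWAT and -0.86 ± 0.31 (adjusted p = 0.12) in eWAT of ob/ob-Veh mice did not pass the test, nor did that with rosiglitazone, -0.33 ± 0.33 in iWAT and 0.50 ± 0.31 (adjusted p = 0.39) in eWAT. A list of adipocyte RNA moved with the iWAT targets in part. The listed genes summed to 420.6 and 302.6 CPM in WT-Veh, 113.2 and 24.6 in ob/ob-Veh and 30.5 and 18.1 in ob/ob-Rosi. Most of each sum was Car3, with 175 and 338, 40 and 22, and 59 and 30 UMIs. Adipoq, Cidec and Plin1 of this list are counted among the PPAR targets too. Endothelial markers summed to 211.3 and 83.6, 19.3 and 69.6, and 190.8 and 147.1 CPM, as high in ob/ob-Rosi as in WT-Veh. Their part in the result was not tested.

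**Figure D3:**
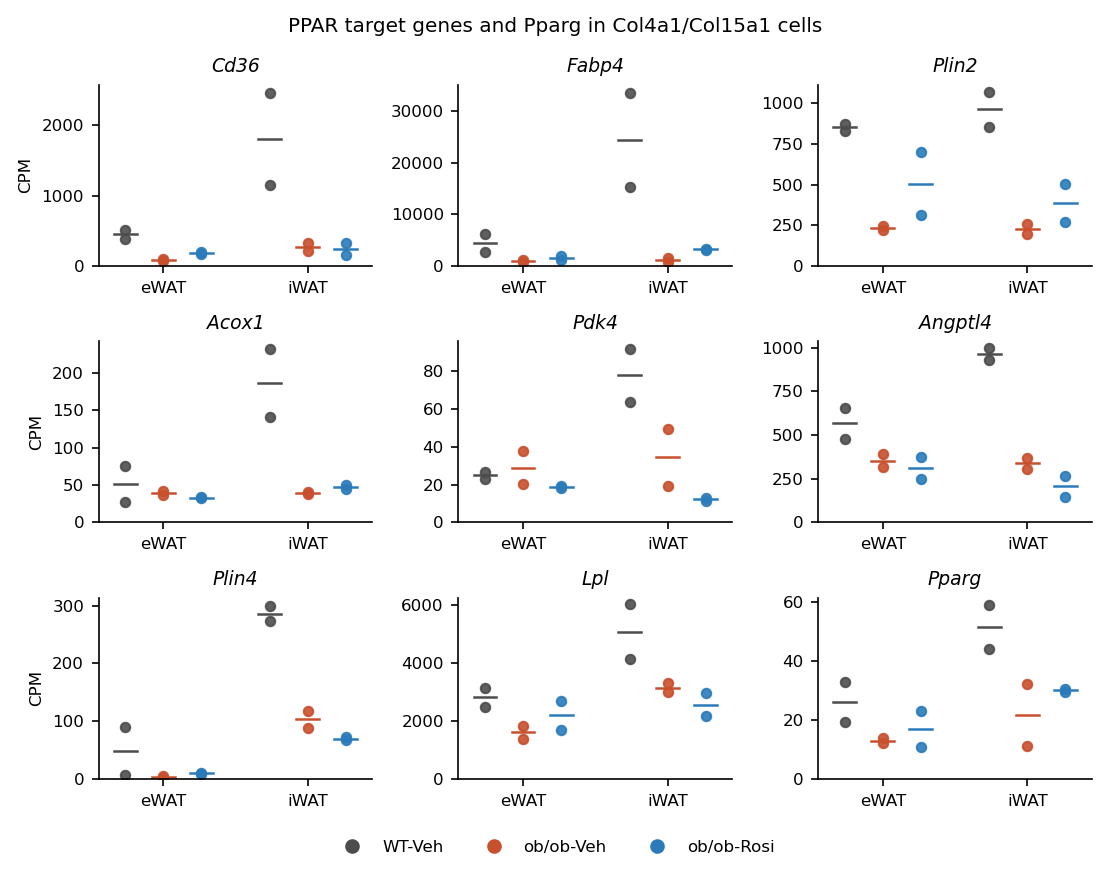
Levels of 8 PPAR target genes and of Pparg in the Col4a1/Col15a1 cells (CPM, linear vertical axis from 0, own scale for each gene), with 1 point per library, 2 per group and depot, and a bar at their mean. Fabp4 in iWAT lies at 15280 and 33530 CPM in WT-Veh and at 775.8 to 3293 CPM in all 4 ob/ob libraries.

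Some markers usual for committed preadipocytes were lower in ob/ob-Veh. Of 12 tested in eWAT, 0 were higher and 5 lower in ob/ob-Veh (median -1.1 beside 0.01), and 3 were higher and 0 lower with rosiglitazone (median 0.71 beside -0.01). These became 3 to 8 lower and 0 to 5 higher with a library left out. In iWAT 0 were higher and 3 lower, then none was called (medians -1.02 and 0.43), with 0 to 4 higher with the drug when a library was left out and 1 after thinning. The 5 eWAT genes were Apoe, Cd36, Fabp4, Plin2 and Sparcl1, of which all but Sparcl1 were at least as high in macrophages or endothelial cells. Sparcl1, a matricellular protein, stood at 1239 and 1523, 605.9 and 720.1, and 1017 and 1291 CPM and fell by 1.14 ± 0.26 (adjusted p = 0.022), a call lost without either WT-Veh or either ob/ob-Veh library, at -1.22 to -1.05. Cxcl14, a chemokine of stromal cells, stood at 246.2 and 203.8, 52.5 and 91.5, and 135.1 and 551.6 CPM and rose by 2.34 ± 0.53 (adjusted p = 0.024) with the drug, a call lost without ob/ob-Rosi 2 or either ob/ob-Veh library, where it ranged from 1.00 to 3.02. Icam1 changed by -0.86 ± 0.28 (adjusted p = 0.085) in ob/ob-Veh and was called, at -0.85, with the replicate block. That block gave 5 committed markers called with the drug. Progenitor markers gave 1 higher and 2 lower of 11 in ob/ob-Veh and then 2 higher and 1 lower (medians 0.43 and -0.44) in eWAT, 0 to 4 and 0 to 2, then 1 to 3 and 0 to 4, with a library left out, and 5 and 5 called with the block.

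Macrophage RNA moved with the eWAT groups. Of 17 macrophage markers, 14 were lower in ob/ob-Veh than in WT-Veh and 0 higher (median -2.61), and 13 were higher and 0 lower in ob/ob-Rosi than in ob/ob-Veh (median 2.25). These were 11 to 15 and 7 to 14 with a library left out. Their sum was 6872 and 4260 CPM in WT-Veh, 826.2 and 1628 in ob/ob-Veh and 3620 and 4400 in ob/ob-Rosi, beside 36360 in the macrophages themselves. Trem2, a lipid receptor of macrophages, stood at 331.8 and 210.8, 2.57 and 4.81, and 136.5 and 225 CPM. The collagen IV chains Col4a3, Col4a4 and Col4a6, Sult1e1, Rspo3 and Wnt5a, which rose, moved against this RNA, whereas Tnc, Mgp, Timp1 and Apoe moved with it, Apoe being 15530 CPM in the macrophages. Cells with macrophage markers at over 1% of UMIs were left out in a further fit, which called 778 genes for ob/ob-Veh against WT-Veh, 753 of them among the 950 given, and 729 for ob/ob-Rosi against ob/ob-Veh, 707 of them among the 797. That fit could not remove macrophage RNA spread over all cells. The markers were 0.362% to 0.687% of the UMIs of the chosen cells in eWAT WT-Veh and ob/ob-Rosi, below the cut. The part of this RNA in the eWAT results was not tested. In iWAT the macrophage sum was 2547 and 2168, 1902 and 1850, and 1718 and 2179 CPM, with 3 of 16 lower in ob/ob-Veh.

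The remaining lists are given by their counts. Over all eWAT genes 3.4% were higher and 4.76% lower in ob/ob-Veh, and 3.89% were higher and 2.97% lower with rosiglitazone. Counts of 1 or 2 calls are not read as results about a list. In eWAT the ribosomal proteins gave 0 calls of 79 in ob/ob-Veh (median -0.25) and 1 lower with rosiglitazone (median 0.25), and the 22 translation factors 0 calls and then 2 higher (medians -0.24 and 0.28, 0 to 6 higher with a library left out). In iWAT 1 of 79 ribosomal proteins was lower in ob/ob-Veh and 72 of 79 were negative (median -0.70 beside 0.01), and with the drug none was called and 75 of 79 were positive (median 0.76 beside -0.04). Leaving out iWAT WT-Veh 1 gave 33 and 35 calls of ribosomal proteins in these 2 comparisons, WT-Veh 2 gave 26 in the second, and leaving out eWAT ob/ob-Rosi 1 gave 11 with the drug in eWAT. Their summed level in iWAT was 104900 and 124000, 74920 and 68090, and 113200 and 129500 CPM, so both ob/ob-Veh libraries were lowest. Lipogenic genes gave 0 higher and 2 lower of 20 in eWAT of ob/ob-Veh mice and 1 higher with the drug, 0 to 3 and 0 to 1 with a library left out. Complement genes gave 0 higher and 1 lower of 10, 0 to 3 and 0 to 1 with a library left out, and 2 higher in iWAT. Glucocorticoid-responsive genes gave 1 higher of 13, Sult1e1, which then was the 1 lower with rosiglitazone. Genes of the Fmo2 list gave 2 higher and 3 lower of 8 and then 5 higher and 2 lower, or 1 to 2 and 2 to 4, then 3 to 5 and 1 to 2, with a library left out. Cell cycle genes gave 0 higher and 5 lower of 8 and then 3 higher and 0 lower (medians -2.69 and 2.43), but 1 to 6 and 1 to 5 with a library left out and 0 and 0 after thinning, and 6 for the drug with the replicate block. Among markers of other lineages, 1 of 8 endothelial and 1 of 4 lymphocyte genes were lower in eWAT of ob/ob-Veh mice, and 1 of each higher with the drug (1 to 4 endothelial genes in either with a library left out), and none of the Schwann cell or erythrocyte genes was called. Mesothelial markers, whose summed eWAT level was highest in ob/ob-Veh, are given with the depots below. The replicate block called 3 erythrocyte genes, 2 endothelial, 3 translation, 4 lipogenic and 3 complement genes in ob/ob-Veh, and 4 endothelial, 2 ribosomal, 3 lipogenic and 3 complement genes with the drug.

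**Figure D4:**
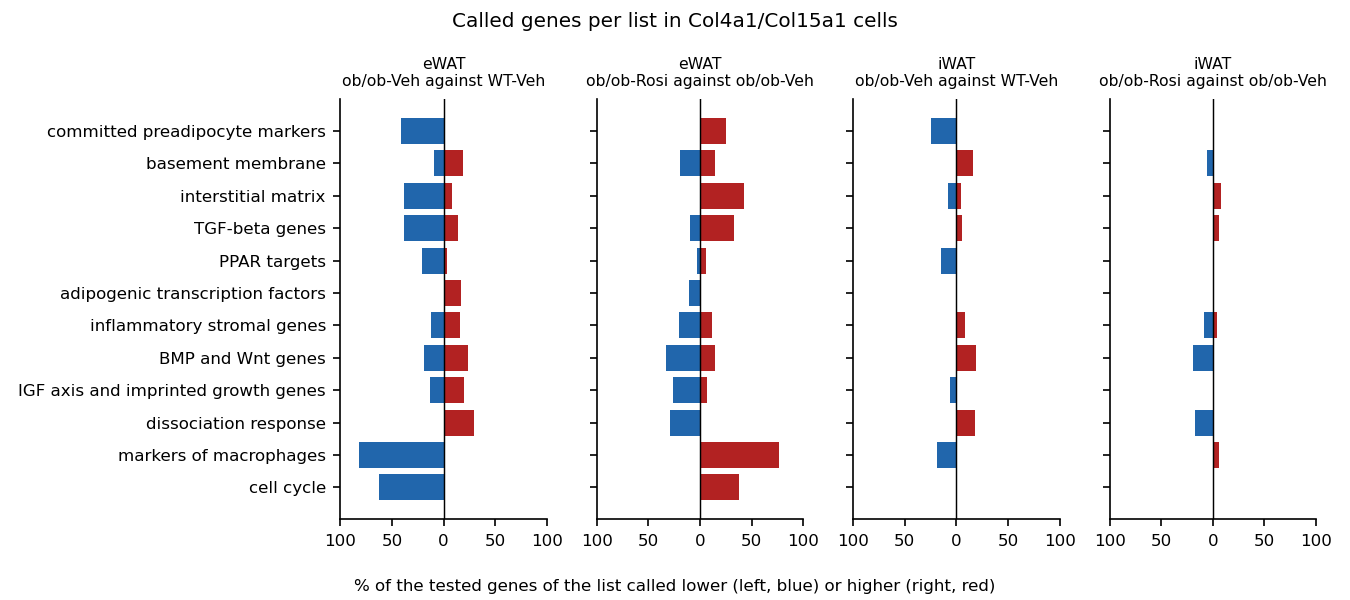
Percent of the tested genes of each list that were called lower (bars to the left, blue) or higher (to the right, red) in the Col4a1/Col15a1 cells, in 4 panels for ob/ob-Veh against WT-Veh and for the drug in each depot. Of 26 interstitial matrix genes in eWAT, 10 were lower in the first and 11 higher in the second. Over all eWAT genes, not drawn, 4.76% were lower in the first and 3.89% higher in the second.

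Among called genes of at least 20 CPM without overlap, those with the largest rise in iWAT of ob/ob-Veh mice included Il1r2, C7, Lgi2 and Tmem26. Il1r2, the decoy receptor for interleukin 1, stood at 18.8 and 11.1 CPM in WT-Veh, 295.4 and 186.2 in ob/ob-Veh and 47.5 and 30.4 in ob/ob-Rosi, and rose by 4.15 ± 0.47 (adjusted p = 0.0032). C7, of the complement attack complex, stood at 8.37 and 1.48, 193.3 and 130.6, and 36.1 and 2.37 CPM and rose by 5.53 ± 1.14 (adjusted p = 0.048). Lgi2, a secreted leucine-rich protein, stood at 14.7 and 13.3, 356.1 and 200.1, and 77.0 and 54.0 CPM. Both ob/ob-Veh libraries stood above all others in each. Tmem26, a membrane protein used as a marker of beige fat cells, stood at 0 and 0, 49.7 and 28.9, and 4.16 and 1.97 CPM, at least 21.2-fold higher in ob/ob-Veh on 45 UMIs. Sult1e1 was not called in this comparison, at 0 and 0 CPM in WT-Veh, 209.8 and 164.8 in ob/ob-Veh (76 and 154 UMIs) and 89.5 and 0 in ob/ob-Rosi. None of the other calls named held without ob/ob-Veh 1, where a single ob/ob-Veh library of 313 cells was left. The change of Il1r2 was then within 3.66 to 4.48 and that of C7 within 4.24 to 6.66, the ranges over all libraries left out.

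Nnat, Reep6, Arxes1 and Arxes2, lower in iWAT of ob/ob-Veh mice, were also lower in ob/ob-Rosi than in WT-Veh by the test. Nnat, neuronatin, stood at 244.8 and 275.2 CPM in WT-Veh, 0 and 2.14 in ob/ob-Veh and 7.63 and 20.9 in ob/ob-Rosi, 173.3 times (counting interval 47.7 to 1435) as high in WT-Veh as in ob/ob-Veh. Relative to WT-Veh, ob/ob-Rosi was 4.22 ± 0.43 lower on the log2 scale (adjusted p = 0.0032). Reep6, of a family that shapes the endoplasmic reticulum, stood at 75.3 and 148, 2.76 and 3.21, and 17.0 and 16.6 CPM, with changes of -5.15 ± 0.55 in ob/ob-Veh and -2.76 ± 0.36 in ob/ob-Rosi against WT-Veh. Both genes were thus partly higher in ob/ob-Rosi than in ob/ob-Veh by level and remained below WT-Veh.

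The pair Arxes1 and Arxes2, adipocyte genes known as PPARgamma targets that arose by gene duplication on the X chromosome, fell in the same way. Arxes2 stood at 146.5 and 220.5 CPM in iWAT WT-Veh, 8.28 and 8.56 in ob/ob-Veh and 4.16 and 13.8 in ob/ob-Rosi, and changed by -4.41 ± 0.55 (adjusted p = 0.0049) and -4.39 ± 0.46 against WT-Veh. Arxes1 stood at 46.0 and 74.0, 2.76 and 1.07, and 2.08 and 2.76 CPM, 43.2 times (counting interval 11.7 to 361) as high in WT-Veh as in ob/ob-Veh and 4.63 ± 0.45 lower in ob/ob-Rosi than in WT-Veh. No ob/ob library overlapped WT-Veh in either gene. The genes are near-identical copies, so the counting may not have told all their reads apart. The 250 bases before their starts (Arxes1 at chrX:136033117-136033366, Arxes2 at chrX:135993570-135993819, plus strand, RefSeq GRCm38.p6) differ at 0 positions and are shown once to make this plain, with the GC boxes GGGCGG in capitals, a motif that 32.7% of windows of this length hold.
Arxes1 and Arxes2: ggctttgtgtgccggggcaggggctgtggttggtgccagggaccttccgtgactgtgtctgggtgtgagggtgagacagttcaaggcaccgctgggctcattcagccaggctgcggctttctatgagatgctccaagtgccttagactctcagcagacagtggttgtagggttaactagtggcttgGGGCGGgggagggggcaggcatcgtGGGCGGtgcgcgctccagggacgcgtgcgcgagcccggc

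Rosiglitazone raised a few genes in iWAT. Ndufa4l2, a hypoxia-linked mitochondrial protein, stood at 14.7 and 87.3, 2.76 and 8.56, and 153 and 242.5 CPM and rose by 4.83 ± 0.72 (adjusted p = 0.027). Saa3, an acute-phase protein, stood at 6.28 and 0.74, 2.76 and 0, and 71.5 and 157 CPM, 144.5 times (counting interval 25.8 to 5718) as high in ob/ob-Rosi as in ob/ob-Veh. Mgp stood at 546.1 and 356.6, 116 and 31.0, and 1010 and 525.7 CPM and rose by 3.47 ± 0.60. Both ob/ob-Rosi libraries were above both ob/ob-Veh libraries in all 3. Among genes that fell, the hyaluronan synthase Has1 changed by -2.67 ± 0.45 and the sphingomyelinase Smpd3 by -3.50 ± 0.49. As given above, no call of this comparison was left without ob/ob-Veh 1 or 2.

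The called genes of large difference between the depots, without overlap of their libraries, included Tbx15, Shox2, Hoxc10 and Hoxa9, higher in iWAT, and Wt1, Tcf21 and Col6a5, higher in eWAT. In a fit of all 12 libraries, 317 of 11715 genes (2.71%) were higher and 378 (3.23%) lower in iWAT than in eWAT. With the eWAT and iWAT libraries of 1 group and number as a pair, 1536 were called, 694 of them among these 695. The limb and trunk patterning gene Tbx15 had no UMI in any eWAT library and 33.5 and 32.6, 46.9 and 76.0, and 35.7 and 34.7 CPM in iWAT, at least 286.7-fold higher on 339 UMIs. Shox2, a limb homeobox gene, stood at 14.7 to 71.8 CPM in iWAT and at 768.8 times (counting interval 137 to 30465) its eWAT level. The posterior homeobox genes Hoxc10 and Hoxa9 were 5.43 ± 0.52 (adjusted p = 2.7e-05) and 4.00 ± 0.57 higher on the log2 scale.

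Wt1, the Wilms tumor factor of mesothelium-derived tissue, stood at 37.2 and 47.1, 175.3 and 161.5, and 49.3 and 25.7 CPM in eWAT and at 0 in all iWAT libraries but ob/ob-Rosi 1, with 2.78, a difference of -8.66 ± 0.68 (adjusted p = 1.5e-05). Tcf21, a factor of visceral mesenchyme, stood at 26.1 and 14.6, 220.1 and 179.4, and 19.7 and 12.3 CPM in eWAT and at 0 in iWAT except for 5.20 in ob/ob-Rosi 1. Within eWAT both were highest in the ob/ob-Veh libraries. The collagen Col6a5 stood at 164.2 to 938.6 CPM in eWAT and at 0 to 27.2 in iWAT, 6.10 ± 0.60 lower there. The list of mesothelial markers holds Wt1 itself, which was most of its sum in eWAT, so that sum follows Wt1 by construction. It stood at 39.9 and 59.3, 187.3 and 176.9, and 51.1 and 26.9 CPM in eWAT and at most 12.6 in iWAT. Upk3b and Msln of this list were low and also highest in ob/ob-Veh, Upk3b at 1.15 and 5.65, 6.61 and 7.09, and 1.1 and 0.456 CPM and Msln at 0.384 and 0, 2.39 and 2.52, and 0.365 and 0.456 in eWAT. The listed Krt19, Krt8 and Lrrn4 had few UMIs and did not follow, each with its highest CPM in an eWAT WT-Veh library. Krt19 had 1 and 11, 8 and 17, and 0 and 0 UMIs in eWAT. The part of mesothelial RNA in the result was not tested.

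Of 12 committed markers, 7 were higher and 0 lower in iWAT than in eWAT (median 0.74 beside -0.03 over all genes), and 4 to 7 higher with a library left out, including Lpl by 0.73 ± 0.19 (adjusted p = 0.031), which was kept in 4 of 12 fits with a library left out, and Cxcl14 by 1.56 ± 0.31, kept in all 12. Of 36 PPAR targets, 8 were higher and 3 lower (median 0.20), 4 to 8 and 1 to 4 with a library left out, led by Plin4 at 3.63 ± 0.43 (adjusted p = 0.00018). Interstitial matrix had 7 higher and 2 lower of 26 (14 called with libraries paired), and TGF-beta genes 1 higher and 5 lower of 21. Of the collagen IV chains, Col4a3 and Col4a4 were 2.17 ± 0.33 (adjusted p = 0.001) and 2.13 ± 0.27 (adjusted p = 0.00027) higher and Col4a6 3.98 ± 0.85 lower (adjusted p = 0.014) in iWAT. The number of genes called fell to 342 without iWAT ob/ob-Veh 2 and stayed within 1.5 times otherwise.

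**Figure D5:**
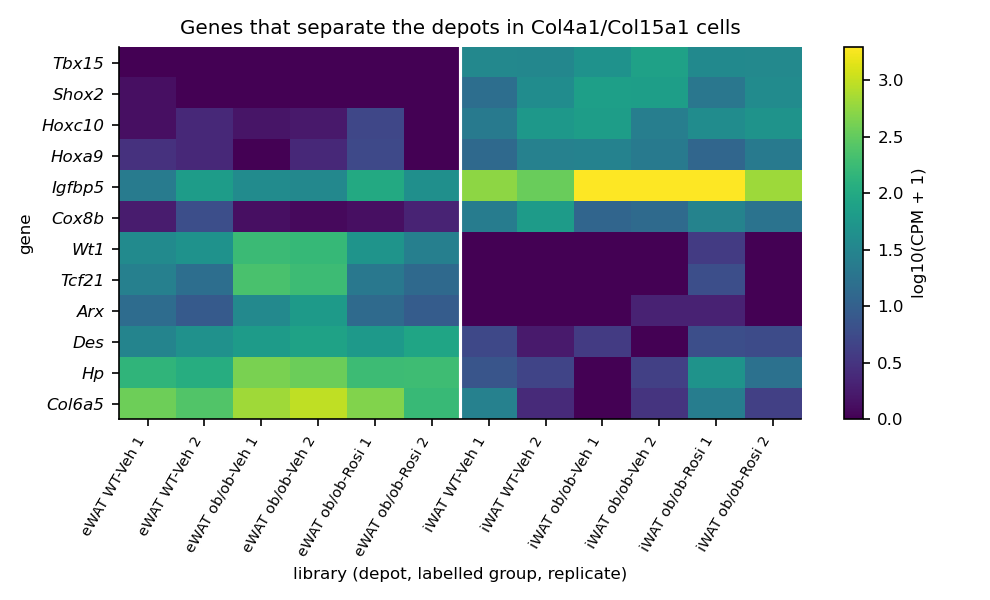
Heatmap of log10(CPM + 1) of 12 genes that differed between depots (rows) in the Col4a1/Col15a1 cells of the 12 libraries (columns, eWAT and then iWAT). Tbx15 is at 0 in all 6 eWAT libraries and Wt1 at 0 in 5 of 6 iWAT libraries.

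The number of effects that differed between the depots, by a test of the difference itself, depended on the pairing of libraries. For ob/ob-Veh against WT-Veh 15 genes (0.128%) were called, 10 with the higher change in iWAT and 5 with the lower, and for the drug within ob/ob 4 (0.0341%), 1 and 3. With the eWAT and iWAT libraries of 1 group and number as a pair, 211 and 212 were called, all 15 and 4 among them. DESeq2 called 86 and 57. Mmp3, which fell in eWAT of ob/ob-Veh mice, stood at 292.9 and 245.6, 1480 and 1117, and 1698 and 859.3 CPM in iWAT, and the difference between depots was 6.66 ± 0.87 (adjusted p = 0.013). Thbs2, a thrombospondin that holds back vessel growth, stood at 157.3 and 181.2, 9.18 and 18.3, and 184.7 and 191.1 CPM in eWAT but at 380.8 and 290, 403.1 and 383.2, and 474.6 and 274.9 in iWAT. In eWAT the ob/ob-Veh libraries were set apart and in iWAT the groups overlapped, a difference of 4.00 ± 0.50. Without a library the first count ranged from 0 (iWAT WT-Veh 2) to 33 (eWAT WT-Veh 2), moving by over 1.5 times whichever was left out, and the second from 0 (iWAT ob/ob-Veh 1 or 2) to 20 (eWAT ob/ob-Rosi 1). It was 12 without eWAT WT-Veh 1 or 2 and 1 without eWAT ob/ob-Rosi 2, either eWAT ob/ob-Veh library or iWAT ob/ob-Rosi 1.

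Against the Pi16/Dpp4 cells of the same libraries, the effects of leptin deficiency and the drug differed for a minority of genes. The difference of the changes was called for 256 of 11697 genes (2.19%) in eWAT and 275 of 11805 (2.33%) in iWAT for ob/ob-Veh against WT-Veh, and for 364 (3.11%) and 87 (0.737%) for ob/ob-Rosi against ob/ob-Veh. The split of higher and lower depended on the scaling. It was 127 and 129 in eWAT for ob/ob-Veh against WT-Veh, and 168 and 104 by library size alone, 178 and 97 in iWAT, and 117 and 146 by library size alone, and 20 and 67 in iWAT for the drug, and 29 and 48 by library size alone. In the iWAT comparisons library size alone moved the median of all genes from 0.03 to -0.16 and from -0.01 to 0.13, so single genes with large differences are named here and no direction of the whole.

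Fndc5, the precursor of irisin, was one of them. It stood in Col4a1/Col15a1 cells at 11.5 and 40.5 CPM in eWAT WT-Veh, 70.1 and 79.6 in ob/ob-Veh and 16.1 and 24.8 in ob/ob-Rosi, and in Pi16/Dpp4 cells at 5.46 and 14.1, 1.83 and 3.36, and 7.30 and 20.5. The change differed by 3.46 ± 0.60 for ob/ob-Veh and by -4.42 ± 0.44 (adjusted p = 9.3e-07) for the drug. Thus Fndc5 was highest in ob/ob-Veh in one population and lowest in the other. Thbs2 stood at 286.5 and 203.7, 49.6 and 81.8, and 189.9 and 194.3 CPM in eWAT Pi16/Dpp4 cells, and its rise with the drug was 2.31 ± 0.21 (adjusted p = 1.9e-07) larger in Col4a1/Col15a1 cells.

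In iWAT, Ptx3, a soluble pattern recognition protein, stood at 35.6 and 8.14, 284.4 and 98.5, and 32.6 and 5.52 CPM in Col4a1/Col15a1 cells and at 429.2 and 52.1, 160 and 57.8, and 59.8 and 22.7 in Pi16/Dpp4 cells, a difference of 4.18 ± 0.34 (adjusted p = 1.7e-08) for ob/ob-Veh against WT-Veh. Postn rose with the drug by 1.88 ± 0.26 (adjusted p = 0.00024) more than in Pi16/Dpp4 cells, where it stood at 894.3 and 440.4, 441.3 and 320.3, and 483.4 and 293.5 CPM. In the latter ob/ob-Veh overlapped ob/ob-Rosi and WT-Veh 1 was highest, while in the Col4a1/Col15a1 cells given above ob/ob-Veh lay below both other groups. Of 13 progenitor markers, 5 changed more upward in Col4a1/Col15a1 cells for ob/ob-Veh in iWAT and 0 more downward (median 1.00, 13 of 13 positive), and 0 and 6 for the drug (median -1.36). With a library left out these were 1 to 6 and 1 to 6, and 0 and 0 after thinning. Of 12 committed markers, 0 changed more upward and 9 more downward than in Pi16/Dpp4 cells for the drug in eWAT (median -1.0 beside 0.04, 4 to 10 with a library left out, 0 after thinning), among them Cxcl14, Pparg and Lpl. A more downward difference need not be a fall. Within Col4a1/Col15a1 cells, 3 committed markers were called higher with the drug in eWAT and 0 lower. Cxcl14 was higher in both ob/ob-Rosi than in both ob/ob-Veh libraries in each population. Lpl stood at 464.3 and 513.1 CPM in ob/ob-Veh Pi16/Dpp4 cells and at 1345 and 1321 in ob/ob-Rosi. In Col4a1/Col15a1 cells Lpl and Pparg overlapped between these groups. The counts of called differences were 66 without WT-Veh 2 and 392 without ob/ob-Rosi 1 in eWAT for ob/ob-Veh, and 102 without ob/ob-Rosi 2 and 193 without ob/ob-Veh 1 for the drug. In iWAT they were 104 without WT-Veh 2 and 178 and 131 without ob/ob-Veh 1 and 2, and for the drug 135 without WT-Veh 1, 50 without ob/ob-Rosi 2 and 53 and 24 without ob/ob-Veh 1 and 2.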

How the data were processed

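The SVF of eWAT and iWAT of 12 mouse libraries was profiled by 10x Genomics 3' v3.1 sequencing. The authors demultiplexed reads with bcl2fastq 2.19.1.403, ran Cell Ranger 3.0.2 on mm10 and deposited raw UMI counts of 31053 genes for 139755 barcodes, without normalization or pooling. In the deposited iWAT files every barcode lies below 22000 UMIs and 25% mitochondrial RNA, so these had been filtered in part. Free RNA was not corrected and doublets were not called, by the sources used here or in this work.

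The filters kept barcodes of 700 to 22000 UMIs and 200 to 6000 genes, with under 25% mitochondrial RNA. Members and gene lists were chosen with earlier results of these data known, so no list is independent evidence. UMIs of members were summed per library (at least 20 cells) and fitted per depot with edgeR 4.0.16 and limma 3.58.1 in R 4.3.3 (TMM, filterByExpr, quasi-likelihood, no replicate block). Depots were compared over all 12 libraries, with interactions for the difference of effects, and Pi16/Dpp4 cells with the library as a block. The study tested cells by a Wilcoxon test, whereas libraries were the unit here. Macrophages and endothelial cells were gated on their own genes for levels and marker sums. Sums of counts were tested with 3 residual degrees of freedom in each depot.

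Named genes were the 6 (depots 8, differences 3) of largest change, per direction, among called genes without overlap of libraries, of at least 20 CPM in the higher group and at least as high in members as in macrophages and endothelial cells, together with called members of the lists, up to 6 a list, and a fixed set of committed markers. The text gives part of them. Where a gene had no UMI in a group, a floor of 3 UMIs over the group was used, and ratios on 1 to 3 UMIs have exact 95% counting intervals. An exact permutation test of 2 against 2 libraries cannot go below p = 0.33. The study describes its samples as 1 batch, prepared and sequenced jointly, and the sources used here do not tie a replicate number to a litter or, between depots, a mouse. In eWAT same-numbered libraries deviated together (correlations of 0.125, 0.195 and 0.27 over the 3 pairs of groups), so values with the replicate number as a block stand beside the eWAT results where they change a call or count. The eWAT and iWAT libraries of 1 group and number deviated together (correlations of 0.313 in WT-Veh, 0.184 in ob/ob-Veh and 0.484 in ob/ob-Rosi). Same-numbered libraries that differed in both group and depot, which cannot share a mouse, had correlations of -0.0185 to 0.391. The correlations thus do not show that libraries of 1 group and number came from 1 mouse. Paired counts stand beside the depot results.

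Other settings were library size alone, DESeq2 1.42.0, TMM without ribosomal and mitochondrial genes, no filter, no minimum change, cells thinned to 700 UMIs, at least 4 collagen UMIs, members with at most 1% macrophage UMIs, genes no lower in members than in macrophages and endothelial cells, a replicate block and each library left out. Leaving out barcodes found in several libraries (269 members, 7140 left) and pairing the depots within each group were chosen after seeing the data. With a library left out, its partner was taken to vary as libraries of other groups do. On simulated data, 81% of 200 genes changed 4-fold were recovered in eWAT (11636 genes) and 71% in iWAT (9389 genes), and 0% of those changed 2-fold in either. The 200 genes were drawn at random from all genes fitted, so these shares need not hold for the real comparisons. Promoters were matched by symbol. Python 3.11.15 with numpy 2.4.6, scipy 1.17.1, pandas 2.3.3 and matplotlib 3.10.9 was used.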

Additional observations from a re-analysis of the deposited data

Results flagged for a closer look

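The following genes of the Col4a1/Col15a1 cells had changes that differed between the depots by a test of the difference itself (edgeR, interaction of depot and group). Groups of 2 libraries were too small to look for a library far from its group. For ob/ob-Veh against WT-Veh, the change in iWAT minus that in eWAT was 6.66 for Mmp3, 4.47 for Il1r2 and 4.00 for Thbs2, and -5.08 for Arxes2, -4.85 for Reep6 and -4.57 for Psat1 (log2). Psat1, an enzyme of serine synthesis, stood at 24.6 and 37.7 CPM in eWAT WT-Veh, 80.4 and 139.1 in ob/ob-Veh and 21.2 and 28.5 in ob/ob-Rosi, and at 35.6 and 57.0, 0 and 9.63, and 20.1 and 22.5 in iWAT. Its ob/ob-Veh libraries were thus the highest in eWAT and the lowest in iWAT.

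For ob/ob-Rosi against ob/ob-Veh the difference was 2.99 for Gstm5, -5.21 for Wisp2, -3.92 for Thbs2 and -3.90 for Il1r2. Both sets share the ob/ob-Veh libraries. Gstm5, a glutathione transferase, stood at 54.5 and 80.5, 298.9 and 373.4, and 60.2 and 79.5 CPM in eWAT and at 46.0 and 74.7, 41.4 and 35.3, and 63.1 and 69.8 in iWAT. Wisp2, a matricellular Wnt target, stood at 18.4 and 52.2, 4.22 and 3.89, and 13.1 and 49.7 CPM in eWAT and at 52.3 and 72.5, 93.9 and 125.2, and 24.3 and 25.2 in iWAT, so the ob/ob-Veh libraries were the lowest in one depot and the highest in the other.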

How the results depend on the processing

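These counts are of called genes. The comparisons are, in order, obesity (vehicle-treated ob/ob against WT), drug (treated against vehicle-treated ob/ob) and drug-treated ob/ob against WT in eWAT (950, 797 and 1 as reported) and in iWAT (107, 75 and 19), the differences from Pi16/Dpp4 cells for the first 2 comparisons in eWAT (256 and 364) and in iWAT (275 and 87), iWAT against eWAT (695), and the differences between depots for the same 2 comparisons (15 and 4). The values below are those that moved by more than 1.5 times.

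Cells thinned to 700 UMIs gave 280, 222 and 0 in eWAT, 27 and 2 for the first and last iWAT comparisons, 24 and 2, and 6 and 13 for the differences from Pi16/Dpp4 cells, 184 between depots, and 3 and 0 for their differences. Fewer UMIs, and 2 eWAT libraries short of 20 thinned Pi16/Dpp4 cells, were part of that setting, and the differences of Tagln (-2.09) and Pappa (2.45) from Pi16/Dpp4 cells with rosiglitazone in eWAT turned sign. No low-count filter gave 1640, 1559 and 44 in eWAT, 614, 582 and 159 in iWAT, 160 for the last difference from Pi16/Dpp4 cells, 1203, and 185 and 163. DESeq2 gave 265, 221 and 40 in iWAT, 108 and 132, then 136 and 42 for the differences from Pi16/Dpp4 cells, and 86 and 57 for those between depots. Genes no lower in members than in macrophages and endothelial cells, fewer by construction, gave 453, 411 and 0 in eWAT, 40 and 12 for the last 2 iWAT comparisons, 143 and 236, then 162, for the differences from Pi16/Dpp4 cells, and 297 between depots. Members with few macrophage UMIs gave 0 in ob/ob-Rosi against WT-Veh in eWAT, 43 in ob/ob-Rosi against ob/ob-Veh in iWAT and 13 for the last depot difference, which at least 4 collagen UMIs put at 11. For the others, the cause was not tested.

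With the replicate number as a replicate block the counts were 1501 and 1374 in eWAT, 495, 521 and 54 in iWAT, 1107 between depots, and 97 and 59 for their differences. Same-numbered libraries deviated together with correlations of 0.125 to 0.27 over 3 pairs in eWAT and 0.00629 to 0.358 in iWAT, so the numbers were not shown to pair samples in iWAT. In eWAT the block took away no call of a named gene and gave 5, those of Icam1 and Cxcl14 (-1.88) in ob/ob-Veh and of Plin2, Sparc and Sparcl1 (1.11, 0.95 and 0.86) with the drug. With a replicate block within each group, chosen after seeing the data, the depot counts were 1536, 211 and 212, and every called gene named in those comparisons kept its call. No paired analysis was possible because the library already was the block, for the differences from Pi16/Dpp4 cells.

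Leaving out each library in turn gave 290 to 1489, 268 to 1848 and 0 to 1 in eWAT, 0 to 883, 0 to 697 and 4 to 97 in iWAT, 66 to 392 and 102 to 486, then 104 to 347 and 24 to 135 for the differences from Pi16/Dpp4 cells, 342 to 831 between depots, and 0 to 33 and 0 to 20 for their differences. No minimum change altered no count. Of the other values, 8276 kept direction and side of the threshold or moved within the spread, 751 lost and 56 gained a call, 696 moved and 2 reversed.

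Depth and 2 libraries per group limit these results. In data simulated for ob/ob-Veh against WT-Veh within a depot no gene changed 2-fold was recovered, and iWAT ob/ob-Veh 1 held 90 cells. That simulation changed 200 genes, fewer than the 950 called in eWAT, so its recovery need not be that of the fits given here.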
